A study of Mus musculus with 2 samples.

Results

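Cholesterol and fatty-acid synthesis genes were examined in the muscle layer (tunica muscularis) of the jejunum of mice with and without *Dnmt1* in smooth muscle, called *Dnmt1*-WT and *Dnmt1*-KO. The set comprised 33 genes taken by symbol from the 18159 genes of the mRNA-seq table, and all 33 were found. Of these, 7 encode enzymes of the mevalonate pathway, 11 encode enzymes from squalene to cholesterol, 4 encode SREBP or its regulators, 5 act in the supply of precursors and the building of the fatty-acid chain, and 6 encode desaturases or elongases. The values of *Tm7sf2* were 0 in both libraries, so that 32 genes reached 1 FPKM in at least 1 library, in fact in both, and entered the ratios. FPKM is the number of sequenced fragments of a gene scaled to transcript length and to library size, so levels of different genes can be set side by side on this scale.

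The question put to the data was how transcripts of this muscle layer differ when *Dnmt1*, the maintenance DNA methyltransferase, is deleted from smooth muscle cells. Each genotype is represented by 1 library from mice on the C57BL/6 background at 15 days of age (P15). The methods give 4 mice, 2 males and 2 females, for each genotype, and do not say how their RNA was combined. *Dnmt1*-WT mice carried the Cre-eGFP transgene under the *Myh11* promoter, as did *Dnmt1*-KO mice, in which the floxed *Dnmt1* alleles were deleted as well. Since the *Myh11* promoter acts in smooth muscle, the other cells of the layer (neurons, glia, interstitial, immune and fat cells) should keep *Dnmt1* by design. Its level by cell type was not measured in these libraries. The strain label lists the floxed allele for both samples and the free-text description names the knockout for both, whereas the title and the genotype label separate WT from KO and were used here. With 1 library per genotype no difference between them has a replicate check, so no p-value is given and "higher" and "lower" below refer to these libraries only.

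Cholesterol is built from acetyl-CoA through mevalonate, farnesyl diphosphate, squalene and lanosterol, and fatty acids are built from acetyl-CoA and malonyl-CoA with NADPH as the reductant. The transcription factors SREBP1 and SREBP2 drive most of these genes: in cells low in sterol, SCAP escorts them from the endoplasmic reticulum to the Golgi, where they are cleaved and released, while INSIG holds SCAP back when sterol is plentiful. SREBP2 is best known for the sterol enzymes and SREBP1 for the fatty-acid enzymes, and both usually act beside the factors NF-Y and SP1 on the promoter. Fat cells and hepatocytes make much fatty acid, while most cell types make cholesterol.

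The promoters of 4 genes are shown because they hold the letters that this gene set shared most often. Of these genes, 3 had the highest KO over WT ratios among the members with a promoter entry (*Thrsp*, *Cyp51* and *Hsd17b7*). *Hmgcs1* was the member with an exact match to the letters searched for the sterol regulatory element (TCACNCCAC, where N is any base). Each sequence covers the 250 bases before the RefSeq start on build GRCm38.p6, read 5′ to 3′ on the strand of the gene. *Hmgcs1* lies on the plus strand at chr13:119690101-119690350, and the others on the minus strand at chr7:97417551-97417800 (*Thrsp*), chr5:4104698-4104947 (*Cyp51*) and chr1:169969206-169969455 (*Hsd17b7*). Capitals mark the NF-Y box (CCAAT, or ATTGG on the other strand) and, in *Hmgcs1*, also the core letters of the sterol regulatory element (TCACCCCAC).

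Hmgcs1: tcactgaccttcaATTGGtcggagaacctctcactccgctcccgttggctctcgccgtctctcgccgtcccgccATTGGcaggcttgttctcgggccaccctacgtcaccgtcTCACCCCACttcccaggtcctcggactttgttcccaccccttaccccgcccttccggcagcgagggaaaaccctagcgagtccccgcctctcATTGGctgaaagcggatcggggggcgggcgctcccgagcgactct
Thrsp: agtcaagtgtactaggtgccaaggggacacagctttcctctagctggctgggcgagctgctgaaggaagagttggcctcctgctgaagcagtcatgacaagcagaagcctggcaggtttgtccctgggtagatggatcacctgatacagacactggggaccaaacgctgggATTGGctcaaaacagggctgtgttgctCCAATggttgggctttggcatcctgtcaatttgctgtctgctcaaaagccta
Cyp51: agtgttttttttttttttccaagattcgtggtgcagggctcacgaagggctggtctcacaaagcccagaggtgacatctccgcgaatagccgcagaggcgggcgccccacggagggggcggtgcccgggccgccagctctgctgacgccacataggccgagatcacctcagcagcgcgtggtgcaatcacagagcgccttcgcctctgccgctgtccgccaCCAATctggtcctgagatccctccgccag
Hsd17b7: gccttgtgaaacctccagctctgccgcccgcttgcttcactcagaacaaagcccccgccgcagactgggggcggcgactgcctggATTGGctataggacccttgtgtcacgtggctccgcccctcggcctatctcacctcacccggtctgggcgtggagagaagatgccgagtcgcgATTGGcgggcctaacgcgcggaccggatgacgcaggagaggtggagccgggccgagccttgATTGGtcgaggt

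Upstream of the start, the NF-Y letters occurred at 3 places in *Hmgcs1*, at 3 in *Hsd17b7*, at 2 in *Thrsp* and at 1 in *Cyp51*. RefSeq promoter windows from 250 bases before to 50 after the start, which were searched on both strands, were matched for 27 of the 33 members (*Scd1*, *Scd2*, *Fads1*, *Fdps*, *Fdft1* and *Sqle* had no entry). NF-Y letters were present in 22 of the 27 members (81.5%). They were present in 42.3% of the 10347 genes with at least 1 FPKM and a promoter entry, and in 37.4% of all 32851 promoter windows. By role, 9 of 9 squalene and later sterol genes, 5 of 6 mevalonate genes, 4 of 5 chain genes, 3 of 4 regulators and 1 of 3 desaturases and elongases held them. The GC box GGGCGG, the letters bound by SP1, was found in 21 members (77.8%), against 68.3% of expressed genes and 35.7% of all windows. The E-box CACGTG occurred in 6 members (22.2%), against 11.4% and 7.15%. The sterol regulatory element core, searched as TCACNCCAC, was present in 1 member (3.70%), against 1.42% and 1.24%, and its letters in *Hmgcs1* did not overlap the NF-Y letters. Only this exact pattern was searched, so an element with other letters would be missed, and members without a match may still hold one. A match of letters is a description of the window and not of binding, and the members with and without NF-Y letters were not compared for their expression.

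**Figure D1:**
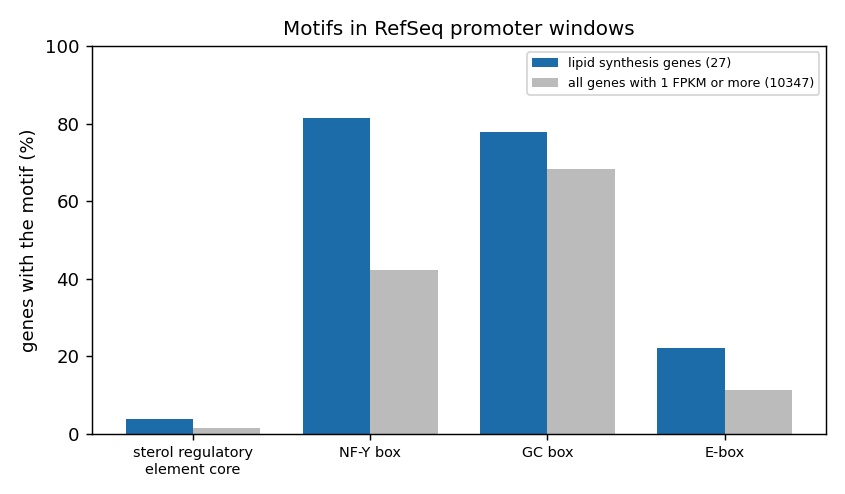
Percent of genes whose RefSeq promoter window (250 bases before to 50 after the start) holds each motif on either strand. Bars show the 27 lipid synthesis genes with an entry, and the 10347 genes with at least 1 FPKM and an entry. The NF-Y box separates the bars most, at 81.5% against 42.3%, and exact matches to the searched sterol regulatory element core are rare in both.

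The FPKM of *Dnmt1* itself was 11.58 for WT against 7.58 for KO, a ratio of 0.655. The table lists 16632 genes above 0 in *Dnmt1*-WT and 17055 in *Dnmt1*-KO, with FPKM sums of 429698 and 460845. The files used here hold no read counts per gene, so no counting interval is given. All 10 smooth muscle markers were detected (FPKM sum 16878 in WT and 12197 in KO). In a bulk sample, a difference in the number of cells of a type and a difference in RNA per cell cannot be told apart. Over the 13865 genes with at least 1 FPKM in 1 library, the median log2 ratio of KO over WT, taken on FPKM + 0.1, was -0.01, with quartiles of -0.32 and 0.35.

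Of the 32 detected lipid synthesis genes, 26 were higher in *Dnmt1*-KO and 6 were lower, where 49.2% of all genes tested were higher, and the count of members above 0 ranged from 20 when both libraries were scaled to the same FPKM sum to 28 when they were scaled to a median log2 ratio of 0 over genes at 1 FPKM or more in each library, or to the same upper quartile over genes above 0 in both. Over all genes tested these 2 scalings leave a median of 0.02. Their median log2 ratio was 0.21, against -0.01 over all genes. Differences were mostly small. A ratio of at least 2 was seen in 3 members (*Thrsp*, *Scd1* and *Cyp51*), where 9.25% of all genes tested were at least doubled, and no member was at most halved, where 3.53% of all genes were. At the 1.5-fold limit 9 members were higher and 0 were lower, against 16.5% and 11% of all genes tested, and the other 23 lay within 1.5-fold. The share of doubled members is thus close to that of all genes, whereas the members leaned to the higher side.

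Most members were moderately expressed. Their median level was 15.4 FPKM in *Dnmt1*-WT and 17.1 FPKM in *Dnmt1*-KO, against 9.05 and 8.96 FPKM for all genes tested. Among genes with a mean of 5 to 20 FPKM, 9.96% of 5670 genes were at least 1.5-fold higher in *Dnmt1*-KO, and 5 of the 17 members in this range were (*Acat2*, *Mvd*, *Cyp51*, *Insig1* and *Thrsp*). Between 20 and 100 FPKM, 9.65% of 2996 genes and 3 of 14 members were (*Fdps*, *Acly* and *Scd1*). The remaining member, *Hsd17b7*, had a mean below 5 FPKM, a range in which 29.6% of 4551 genes were at least 1.5-fold higher. Scaled to equal FPKM sums, which moves the median of all genes from -0.01 to -0.11, 6 members were at least 1.5-fold higher and 2 at least doubled, where 14.1% and 8.28% of all genes were.

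**Figure D2:**
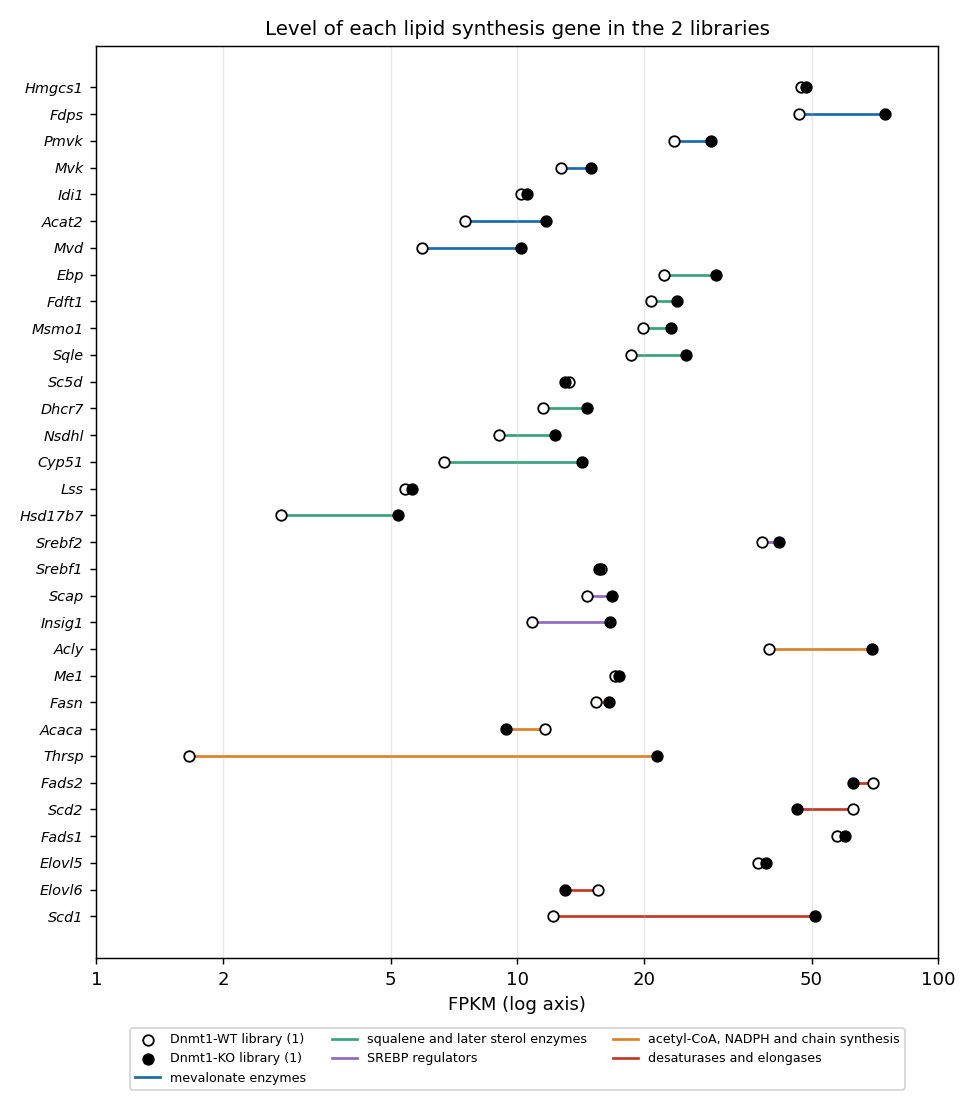
FPKM (log axis) of each of the 32 detected genes in the *Dnmt1*-WT library (open circles) and the *Dnmt1*-KO library (filled circles), 1 library each. Lines are coloured by role, and genes are ordered within a role by their level in *Dnmt1*-WT. *Thrsp* (1.66 to 21.52 FPKM) and *Scd1* (12.13 to 50.95 FPKM) have the longest lines. Of the 32 genes, 10 (31.25%) differ by less than 10%, where 24.0% of all genes tested do.

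Genes of the mevalonate pathway were all listed higher in *Dnmt1*-KO, 7 of 7, with a median log2 ratio of 0.29 and an FPKM sum of 153.79 in WT and 199.31 in KO, although *Hmgcs1* and *Idi1* turned below 0 when the libraries were scaled to equal FPKM sums. At least 1.5-fold higher were 3 of them. *Mvd*, whose enzyme decarboxylates mevalonate diphosphate, was at 5.93 FPKM in WT and 10.23 FPKM in KO (1.73-fold). *Fdps*, encoding farnesyl diphosphate synthase at the branch to sterols and prenyl groups, was at 46.58 and 74.64 FPKM (1.60-fold). *Acat2*, the cytosolic acetoacetyl-CoA thiolase that opens the pathway, was at 7.53 and 11.67 FPKM (1.55-fold). The genes that open and close the pathway were thus among the 3 in the reported values, and the other 4 differed less. With equal FPKM sums *Mvd* (log2 ratio 0.6767) stayed past 1.5-fold, whereas *Fdps* (0.5783) and *Acat2* (0.5253) did not. *Acat2* also fell below that limit with a pseudocount of 1 FPKM (0.5708) and when centred on transcript length (0.5401).

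*Pmvk*, encoding phosphomevalonate kinase, was at 23.57 FPKM in WT and 28.83 FPKM in KO (1.22-fold). *Mvk*, encoding mevalonate kinase, was at 12.7 and 14.94 FPKM (1.18-fold). The 2 kinases thus differed by less than 1.5-fold, and the remaining pair hardly at all. *Idi1*, the isomerase of isopentenyl diphosphate, was at 10.21 and 10.55 FPKM (1.03-fold), and *Hmgcs1*, encoding the cytosolic HMG-CoA synthase, at 47.27 and 48.45 FPKM (1.02-fold). *Hmgcs1* was the most abundant mevalonate transcript in the WT library and *Fdps* in the KO library.

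Enzymes from squalene to cholesterol were higher in *Dnmt1*-KO for 9 of 10 detected genes, with a median log2 ratio of 0.37 and an FPKM sum of 130.26 in WT and 166.96 in KO. *Cyp51*, the lanosterol 14-alpha-demethylase, was at 6.68 FPKM in WT and 14.27 FPKM in KO (2.14-fold). *Hsd17b7*, the 3-keto-sterol reductase of the later C4 demethylation, was at 2.75 and 5.2 FPKM (1.89-fold). These were the only members of the group at 1.5-fold or more. *Cyp51* lies at chr5:4081145-4104746 and *Hsd17b7* at chr1:169949535-169969241, both on the minus strand of GRCm38.

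A middle tier of 4 genes was between 1.27-fold and 1.36-fold higher. *Nsdhl*, the sterol dehydrogenase that works with *Hsd17b7*, was at 9.04 FPKM in WT and 12.3 FPKM in KO (1.36-fold), and *Sqle*, the squalene epoxidase and a rate-limiting step, was at 18.61 and 25.13 FPKM (1.35-fold). *Ebp*, the sterol isomerase, was at 22.34 and 29.62 FPKM (1.33-fold), and *Dhcr7*, the last reductase before cholesterol, at 11.5 and 14.62 FPKM (1.27-fold). All 4 stayed above 0 under every scaling tried. *Msmo1*, the C4-methyl sterol oxidase, was at 19.89 and 23.21 FPKM (1.17-fold), and *Fdft1*, the squalene synthase, at 20.77 and 23.97 FPKM (1.15-fold). *Lss*, the lanosterol synthase, was at 5.41 and 5.63 FPKM (1.04-fold), and *Sc5d*, the lathosterol oxidase, was the one listed lower, at 13.27 and 13.01 FPKM (0.980-fold). Both of these lay within 10% of the WT level and changed sign with the scaling. *Tm7sf2*, the sterol C14-reductase, was listed at 0 in both libraries, while *Vps51*, whose transcripts share 9.87% of the 50-base stretches of *Tm7sf2*, was at 11.43 and 11.63 FPKM.

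With both stages joined, 16 of 17 detected sterol enzymes were higher in *Dnmt1*-KO, and 5 were at least 1.5-fold higher, where 16.5% of all genes tested were. Their median log2 ratio was 0.34 and their FPKM sum 284.05 in WT and 366.27 in KO, a ratio of 1.29. The number above 0 was 13 with equal FPKM sums, where 41.1% of all genes were above 0, and 17 when scaled to a median of 0 over genes at 1 FPKM or more in each library, where 51.9% of all genes tested were. The count past 1.5-fold also fell with equal FPKM sums. *Acat2* (log2 ratio 0.5253) and *Fdps* (0.5783) then lay below that limit, where 14.1% of all genes tested reached it. By sign, most sterol enzymes were higher in this library. In the reported values, 12 of the 17 lay within 1.5-fold of the WT level, *Sc5d* on the lower side.

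The 4 SREBP genes and regulators had a median log2 ratio of 0.17, which became -0.03 when ratios were centred on transcript GC content. *Insig1*, the sterol-sensing anchor of SCAP and itself a target of SREBP, was at 10.82 FPKM in WT and 16.57 FPKM in KO (1.53-fold). *Scap*, the escort protein, was at 14.6 and 16.83 FPKM (1.15-fold). *Srebf2*, encoding SREBP2, was at 38.15 and 41.81 FPKM (1.10-fold) and *Srebf1*, encoding SREBP1, at 15.84 and 15.6 FPKM (0.985-fold). The transcripts of both factors thus differed by 10% or less, *Srebf1* changed sign with the scaling and *Srebf2* when centred on transcript GC content, and *Srebf2* was the more abundant in either library, by 2.41-fold in WT and 2.68-fold in KO. Transcript levels do not show how much SREBP is cleaved and active, which was not measured in these libraries.

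Genes that supply acetyl-CoA and NADPH or build the chain were divided. *Thrsp*, encoding the Spot 14 protein that promotes fatty-acid synthesis and is known from liver and fat, was at 1.66 FPKM in WT and 21.52 FPKM in KO. This 13.0-fold difference was the highest of all members, and 0.923% of all genes tested had as high a log2 ratio. *Acly*, the ATP citrate lyase that makes cytosolic acetyl-CoA for both sterols and fatty acids, was at 39.59 and 69.59 FPKM (1.76-fold). *Thrsp* lies at chr7:97412938-97417730 and *Acly* at chr11:100476353-100528000, both on the minus strand of GRCm38.

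The enzymes of the chain itself did not share these differences in level. *Fasn*, the fatty acid synthase, was at 15.34 FPKM in WT and 16.55 FPKM in KO (1.08-fold). *Acaca*, the acetyl-CoA carboxylase that forms malonyl-CoA and is rate-limiting, was at 11.63 and 9.39 FPKM (0.807-fold). *Me1*, the malic enzyme that yields NADPH, was at 17.09 and 17.44 FPKM (1.02-fold). The median log2 ratio of the 5 genes was 0.11 and ranged from 0.0085 with equal FPKM sums to 0.34 when centred on transcript length, with *Acaca* below 0 under each setting tried and *Fasn* and *Me1* on either side of it. *Acly* transcripts outnumbered those of *Fasn* by 2.58-fold in WT and 4.20-fold in KO on the FPKM scale.

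Desaturases and elongases split evenly, with 3 of 6 higher, 3 lower and a median log2 ratio of -0.05. *Scd1*, the stearoyl-CoA desaturase of liver and fat that makes oleate and palmitoleate, was at 12.13 FPKM in WT and 50.95 FPKM in KO (4.20-fold), and 3.09% of all genes had as high a log2 ratio. Its neighbour *Scd2*, a desaturase with the same reaction that is widely expressed in young animals, was at 62.65 and 46.15 FPKM (0.737-fold). The pair thus differed in opposite directions under every scaling tried, and the ratio of *Scd1* to *Scd2* was 0.194 in WT and 1.10 in KO. *Scd1* made up 16.2% of their joint FPKM in WT and 52.5% in KO, while the sum of both was 74.78 and 97.1 FPKM. Both lie on chromosome 19, *Scd2* at chr19:44293674-44306864 on the plus strand and *Scd1* at chr19:44394455-44407879 on the minus strand. Of the 50-base stretches of their annotated transcripts, 4.56% (*Scd1*) and 3.97% (*Scd2*) occur in another gene.

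The other 4 genes of the group differed by less than 1.5-fold. *Fads2*, the delta-6 desaturase, was the most abundant member in the WT library, at 70.12 FPKM, and was at 62.71 FPKM in KO (0.894-fold). *Fads1*, the delta-5 desaturase beside it on chromosome 19, was at 57.4 and 60.12 FPKM (1.05-fold). Both desaturases of polyunsaturated fatty acids were thus near equal in the libraries. *Elovl6*, which extends palmitate to stearate, was at 15.55 and 13.01 FPKM (0.837-fold), and *Elovl5*, which extends polyunsaturated chains, at 37.35 and 38.98 FPKM (1.04-fold). *Elovl6*, *Fads2* and *Scd2* were below 0 under each setting tried, whereas *Elovl5* and *Fads1* changed sign.

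**Figure D3:**
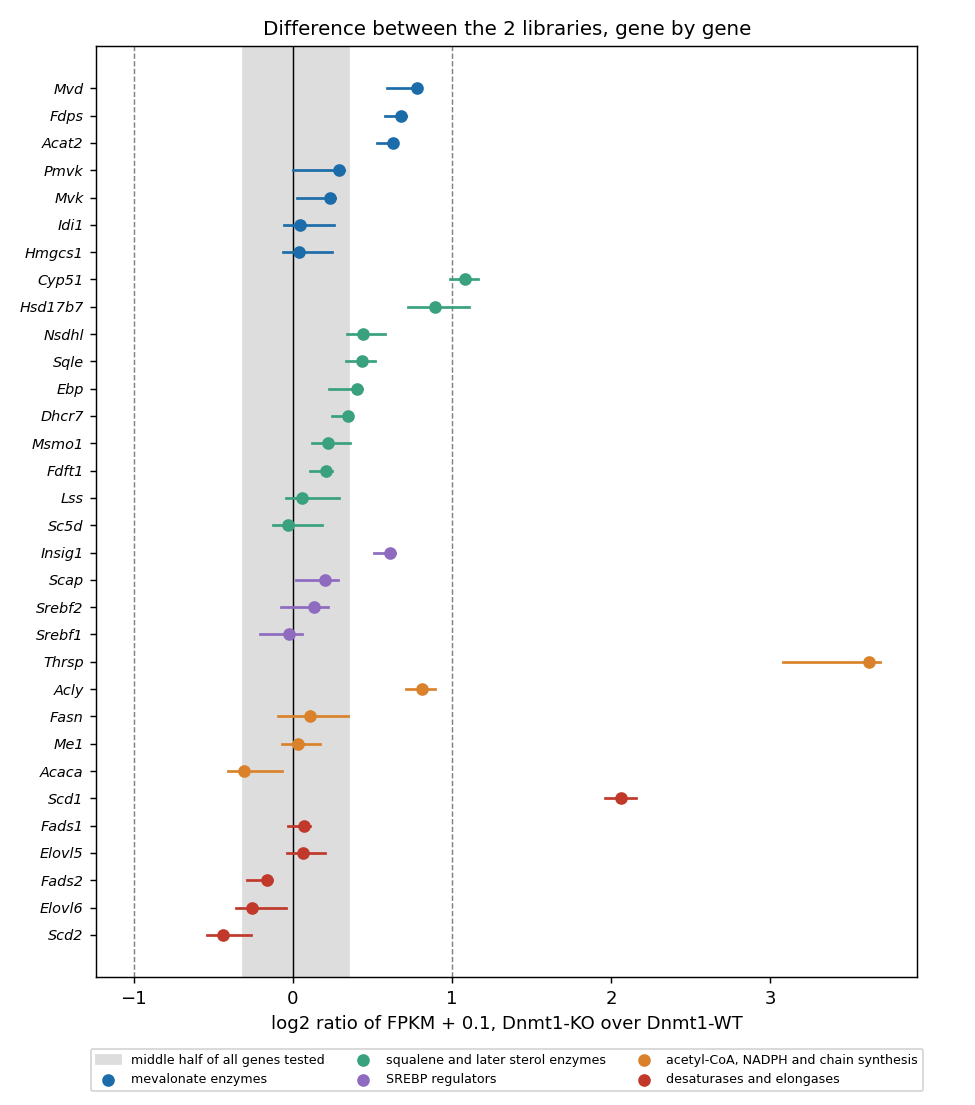
Log2 ratio of FPKM + 0.1, *Dnmt1*-KO over *Dnmt1*-WT, for each detected gene by role, where the point is the reported value, the bar spans its values over the 9 other processing settings, the grey band holds the quartiles of all genes tested (-0.32 to 0.35) and dashed lines mark a doubling and a halving. *Thrsp* and *Scd1* lie far to the right, most sterol enzymes lie to the right of 0, and 10 genes have bars that cross 0.

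Taking the 11 fatty-acid genes together, 7 were higher and 4 lower in *Dnmt1*-KO, with a median log2 ratio of 0.06. That balance turned with the setting. With equal FPKM sums *Me1* (-0.07), *Elovl5* (-0.04) and *Fads1* (-0.03) fell below 0, and more of the 11 were lower than higher. Centred on transcript GC content, *Fasn* (-0.10) and *Fads1* (-0.03) fell below 0, again with more lower than higher. The FPKM sum of the 11 genes was 340.51 in WT and 406.41 in KO, a ratio of 1.19. The FPKM sum of the 3 with the highest ratios, *Thrsp*, *Scd1* and *Acly*, was 53.38 in WT and 142.06 in KO, whereas that of *Elovl6*, *Scd2* and *Acaca* was 89.83 and 68.55, both trios being chosen by their values.

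Other genes of both pathways came from lists written by function. Of 16 further sterol and SREBP genes, 10 were higher and 6 lower, with a median log2 ratio of 0.38, and none was doubled. Over all genes tested, 49.2% were higher and 9.25% at least doubled. *Npc2*, which carries cholesterol out of lysosomes, was at 21.48 FPKM in WT and 33.79 FPKM in KO (1.57-fold). The SREBP proteases were near equal in the libraries. *Mbtps1* was at 44.8 and 42.78 FPKM, *Mbtps2* at 4.74 and 4.56 FPKM, and *Insig2*, the second anchor of SCAP, at 13.73 and 12.94 FPKM. *Ggps1*, which leads farnesyl diphosphate away to prenylation, was lower, at 13.73 and 9.11 FPKM (0.664-fold).

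Among 24 further detected fatty-acid genes, 16 were higher and 8 lower, with a median log2 ratio of 0.20, which was 0.10 with equal FPKM sums and 0.49 with a minimum of 5 FPKM. At the 1.5-fold limit 7 were higher and 4 lower, against 16.5% and 11% of all genes tested, and *Mlxipl* passed the 1 FPKM minimum in the KO library alone and *Scd4* and *Me3* in the WT library alone. *Slc25a1*, which exports the citrate that ACLY cleaves, was at 35.57 FPKM in WT and 56.64 FPKM in KO (1.59-fold). *Slc25a10*, the dicarboxylate carrier, was at 3.06 and 6.46 FPKM (2.11-fold), and *Mlxipl*, encoding the glucose-responsive factor ChREBP, at 0.26 and 2 FPKM. The transcripts of the citrate exporter and of *Acly* were thus both higher. *G6pdx* and *Pgd*, the NADPH-forming enzymes of the pentose phosphate pathway, were at 8.7 and 12.89 FPKM (1.48-fold) and at 27.23 and 39.71 FPKM (1.46-fold). *Elovl1*, the elongase of very long saturated chains, was at 21.51 and 40.55 FPKM (1.89-fold), while the elongases *Elovl2* (2.5 and 1.36 FPKM) and *Elovl7* (2.72 and 1.33 FPKM) were lower. *Scd4* was at 3.76 and 0.16 FPKM and the mitochondrial malic enzyme *Me3* at 3.07 and 0.79 FPKM, the lowest ratios of this list, while *Scd3* and *Elovl3* were listed at 0 in both libraries. The 8 genes of the LXR list, whose factors sense oxysterols and drive *Srebf1* and *Scd1* in other tissues, were divided 4 to 4, with *Nr1h3* (LXR alpha) at 1.3 and 4.42 FPKM, *Abca1* at 5.43 and 6.76 FPKM, *Abcg1* at 3.08 and 1.75 FPKM and *Mylip* at 11.18 and 8.04 FPKM.

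Markers of several cell types differed along with these genes. Of the 10 adipocyte markers, 9 were higher in *Dnmt1*-KO, where 49.2% of all genes tested were. The FPKM sum over the list was 136.13 in WT and 1246.35 in KO. *Adipoq*, *Retn*, *Plin1* and *Pparg* were below 1 FPKM in WT and passed the 1 FPKM minimum through the KO library alone, so a count or median over the markers that passed is set in part by that minimum. *Fabp4* was at 103.72 and 874.84 FPKM, *Cfd* (adipsin) at 2.61 and 182.62 FPKM and *Adipoq* (adiponectin) at 0.85 and 46.71 FPKM, while *Lep* was listed at 0 in WT and 0.2 FPKM in KO and *Cidea* was lower, at 15.91 and 13.21 FPKM. Of the 11 fatty-acid genes, *Thrsp*, *Scd1* and *Acly* were at least 1.5-fold higher. The other 8 lay within 1.5-fold, among them *Fasn* (1.08-fold) and *Acaca* (0.807-fold). The part of adipocytes in the result was not tested.

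Macrophage markers were higher for 9 of 9 genes, with an FPKM sum of 146.84 in WT and 513.16 in KO. Beside this and the further counts in this paragraph, 49.2% of all genes tested were higher in *Dnmt1*-KO. Enterocyte markers, of a cell type that also makes cholesterol and lipoproteins, were higher for 9 of 10 (sum 486.98 and 1060.17 FPKM), with *Apoa4* at 208.37 and 433.8 FPKM and *Apoa1* at 158.32 and 327.3 FPKM as the largest parts of the sum, while *Sis* was lower, at 1.93 and 0.51 FPKM. Hepatocyte markers were low in both libraries but higher in *Dnmt1*-KO (sum 2.9 and 13.78 FPKM), for 7 of 7 genes. Only 3 of the 7 (*Cps1*, *Ttr* and *Apoa2*) reached 1 FPKM in a library, *Ttr* and *Apoa2* in the KO library alone. *Cps1*, the most abundant gene of the list in either library, was at 1.08 and 6.25 FPKM, and *Alb* was at 0.21 and 0.85 FPKM. Whether the genes of this list mark hepatocytes in this tissue was not tested. Markers of dividing cells, which need new membrane sterol, were higher for 10 of 10 (sum 52.93 and 101.77 FPKM). Glia and Schwann markers were mixed, 6 of 8 higher with a median log2 ratio of 0.12. Smooth muscle markers were lower for 10 of 10, with a median log2 ratio of -0.55. Whether any of these cell types contributed to the levels of the lipid synthesis genes was not tested.

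**Figure D4:**
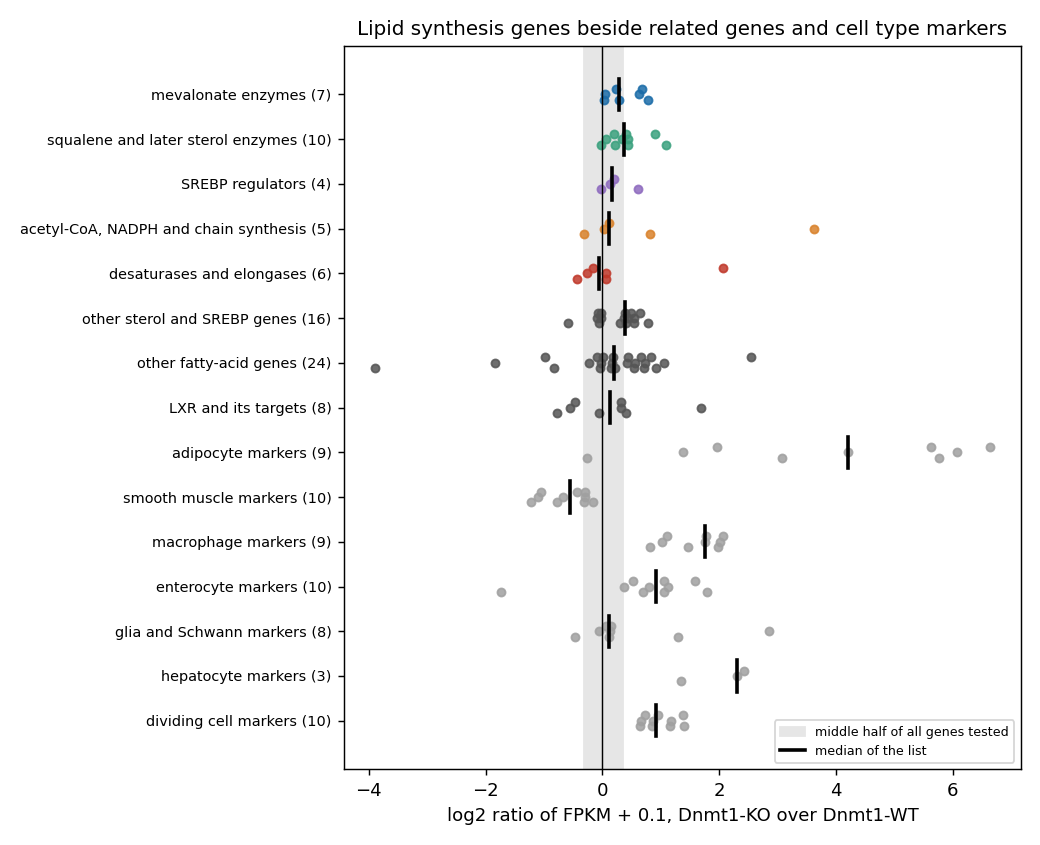
Log2 ratio of FPKM + 0.1, *Dnmt1*-KO over *Dnmt1*-WT, of each detected gene (points) and the median (bar) for the 5 roles of lipid synthesis genes, the related pathway lists and the marker lists, with the quartiles of all genes tested as a grey band and the number of genes in brackets. The medians of the 5 roles lie between -0.05 and 0.37, while the smooth muscle markers have a median of -0.55 and the adipocyte markers one of 4.20 over 9 genes, of which 4 passed the 1 FPKM minimum in the KO library alone.

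The table also gives the number of transcript variants detected per gene. For 8 of 32 members more variants were listed in *Dnmt1*-KO than in *Dnmt1*-WT, against 13.6% of all genes tested, and for 0 members fewer were listed, against 14.5%. *Scd1* and *Cyp51* each had 1 variant in WT and 2 in KO. The number detected may depend on the level of a gene and on depth, which was not tested.

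Some members share sequence with other genes, which makes their values uncertain where reads could be split. Of the 50-base stretches of annotated transcripts, 39.1% of those of *Acat2* occur in another gene, namely *Acat3*, which was at 21.74 FPKM in WT and 25.39 FPKM in KO. This share was 30.4% for *Acaca*, 26.2% for *Fdps*, 22.9% for *Me1*, 17.7% for *Idi1* and 9.38% for *Fdft1*. Among the genes with the largest ratios, *Thrsp* (0.421%), *Cyp51* (0.135%), *Hsd17b7* (0%), *Mvd* (0%) and *Acly* (0%) share little or none, and *Scd1* shares 4.56%, with *Scd2*, *Scd3* and *Scd4* among the other genes.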

How the data were processed

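Total RNA of jejunal tunica muscularis was made into TruSeq libraries, 1 per genotype. The authors deposited 1 table with the FPKM of each gene in each library, the number of transcript variants detected (per the file headers) and their own fold change, which holds a finding of the study and was not used. The submitters' processing notes name TopHat 1.4.1, Cufflinks 2.0.2 and build mm10, and the role of each is not given in the sources used here. From the deposited FPKM, the log2 ratio of FPKM + 0.1 was computed for genes with at least 1 FPKM in 1 library, with limits of 2-fold and 1.5-fold applied to that ratio, whereas folds printed beside a gene are plain FPKM ratios. A log2 ratio with a pseudocount understates the difference of low genes.

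The named genes are all 33 members, and of the other lists those past 2-fold, abundant or rate-limiting. The members and lists were chosen with earlier results of these data known. The other genes named from the further lists (such as *Npc2*, *Slc25a1*, *Elovl1* and *Ggps1*), the markers *Cidea*, *Lep*, *Sis* and *Alb*, and *Acat3* and *Vps51* were chosen after their values were seen. *Idi2* and *Faxdc2* were not matched to the table, so 16 of 18 genes of the further sterol list were used. Single values of some of these are not reported here. Alternatives were another pseudocount, other scalings, another filter, and ratios centred on transcript length or GC content in 10 equal bins (GENCODE M21, 17204 genes matched). Shared sequence came from the same transcripts and promoters from RefSeq (GRCm38.p6). The ratios and counts were checked on simulated data. Python 3.11.15, numpy 2.4.6, pandas 2.3.3 and matplotlib 3.10.9 were used.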

Additional observations from a re-analysis of the deposited data

How the results depend on the processing

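Across 9 alternatives, the medians of 4 of the 5 roles and of all members kept their direction. The exception was the median log2 ratio of the SREBP regulators, 0.17 as reported and -0.0280 when centred on transcript GC content, and the cause was not tested. The median ranged from 0.11 to 0.24 for all members, from 0.15 to 0.32 for mevalonate genes, from 0.27 to 0.40 for squalene and later sterol genes, from 0.0085 to 0.34 for chain genes and from -0.15 to -0.02 for desaturases and elongases. Members at least doubled numbered 2 to 4, and those at least 1.5-fold higher 6 to 9. The sign changed for 10 single members (*Elovl5*, *Fads1*, *Fasn*, *Hmgcs1*, *Idi1*, *Lss*, *Me1*, *Sc5d*, *Srebf1* and *Srebf2*), while *Pmvk* came to 0.00 when centred on transcript length. The log2 ratio ranged from 3.08 to 3.69 for *Thrsp*, from 1.96 to 2.15 for *Scd1* and from 0.98 to 1.16 for *Cyp51*. With 1 library per genotype and no read counts per gene, neither biological nor counting error can be given. No paired analysis was possible because each genotype has 1 library.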
